A study of Mus musculus with 6 samples.

Results

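The replication-dependent histone genes were measured by 55 of the 35556 probe sets on the arrays, and these 55 probe sets carry 55 different histone genes. A probe set, the group of probes summarised to 1 value, was taken when every gene the platform's table lists for it once had a symbol beginning with Hist1h, Hist2h, Hist3h or Hist4h. The table now lists these genes under newer symbols such as H4c14 (formerly Hist2h4), so they were matched by gene identifier to the older symbols in a RefSeq gene table. By class, 5 probe sets belonged to the linker histone H1, 5 to H2a, 18 to H2b, 13 to H3 and 13 to H4, and 1 listed both an H2b and an H1 gene. Only 31 of the probe sets listed 1 gene, and 24 were shared by several genes. A further 3 probe sets that mix these histone genes with other genes, among them both large H2a probe sets, which also list the variant H2ax, were not members.

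The arrays held RNA of T cells sorted for CD3 from the spleens of 6 B6D2F1/J mice, 1 array a mouse, on day 10 after a bone marrow transplant. All 6 recipients had been lethally irradiated and given bone marrow from B6 mice from which T cells had been removed; B6 spleen cells were added for some transplants, and the labels do not say for which mice. Of the 6, 3 had intraperitoneal injections of rapamycin, an inhibitor of the kinase mTOR, repeated every second day up to day 10 at a dose of 1.5 mg/kg, and 3 had PBS on that schedule. The labels do not say how many of the sorted cells came from the host and how many from the donor. Of 16 T cell identity markers, 14 had a probe set of their own, at mean levels of 9.46 to 12.85 log2 against a median of 6.08 over all probe sets, with Cd3e at 12.85.

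Replication-dependent histone genes supply the bulk of the histones that package newly copied DNA, and their mRNA accumulates in S phase and is degraded when replication ends. Most of these mRNAs carry no poly(A) tail: they end in a stem-loop that SLBP binds and that the U7 small nuclear RNP helps to cut. The genes lie in clusters, and many copies of a class encode the same or nearly the same protein, which is why so many probe sets of an array cannot tell them apart. In lymphocytes the level of these mRNAs is commonly read as a sign of cells in S phase.

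The promoters of these genes are shown as windows that reach past the start of the gene and so can take in transcribed and coding bases. Windows from 250 bases before to 50 bases after the start were found in RefSeq (build GRCm38.p6) for 49 of the 55 genes, as 50 windows. The windows below belong to the member with 1 gene and the smallest p of its class among those with a window, for classes H1, H2a, H2b and H4. In class H4 that is H4f16, since H4c14, which has a smaller p, was not matched to a window. Capitals mark every match, on either strand, to 5 motifs: the TATA box (TATAAA), the CCAAT box (CCAAT), the core of the octamer bound by OCT1 (TGCAAAT), the H1 box (AAACACA) and the core of the site bound by the H4 gene regulator HINFP (CGGAC).
H1f1, chr13:23763418-23763717, plus strand: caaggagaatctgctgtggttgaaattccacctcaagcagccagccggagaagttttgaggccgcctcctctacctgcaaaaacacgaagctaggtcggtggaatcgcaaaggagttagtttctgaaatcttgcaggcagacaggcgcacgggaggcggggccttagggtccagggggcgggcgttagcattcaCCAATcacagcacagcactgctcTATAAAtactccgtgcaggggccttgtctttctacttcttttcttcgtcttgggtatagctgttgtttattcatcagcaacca
H2ac8, chr13:23571171-23571470, minus strand: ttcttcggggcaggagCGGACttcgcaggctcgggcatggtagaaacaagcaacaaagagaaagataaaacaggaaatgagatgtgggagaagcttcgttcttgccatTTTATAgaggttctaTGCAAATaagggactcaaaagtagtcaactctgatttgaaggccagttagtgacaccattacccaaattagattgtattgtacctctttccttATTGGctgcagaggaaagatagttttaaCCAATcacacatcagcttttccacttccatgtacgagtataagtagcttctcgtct
H2bc22, chr13:21787238-21787537, plus strand: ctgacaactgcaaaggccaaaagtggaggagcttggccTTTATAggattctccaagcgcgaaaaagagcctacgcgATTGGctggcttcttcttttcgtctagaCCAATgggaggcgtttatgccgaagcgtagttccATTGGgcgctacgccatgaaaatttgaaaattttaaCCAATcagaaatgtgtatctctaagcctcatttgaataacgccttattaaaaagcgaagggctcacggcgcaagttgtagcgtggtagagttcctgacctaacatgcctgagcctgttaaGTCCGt
H4f16, chr6:136804382-136804681, minus strand: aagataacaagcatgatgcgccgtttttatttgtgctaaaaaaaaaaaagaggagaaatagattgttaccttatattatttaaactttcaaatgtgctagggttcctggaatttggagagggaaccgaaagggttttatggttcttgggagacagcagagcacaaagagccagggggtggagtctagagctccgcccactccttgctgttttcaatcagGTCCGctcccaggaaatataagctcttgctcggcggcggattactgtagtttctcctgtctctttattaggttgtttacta
In the H1f1 window a CCAAT box at positions -56 to -52 and a TATA box at -33 to -28 precede the start. The H2ac8 window holds the octamer core at -127 to -121 and CCAAT boxes nearer the start. The H2bc22 window holds 4 CCAAT boxes, and the H4f16 window holds 1 match, the HINFP core at -31 to -27.

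The classes differed in which motifs their windows held. All 12 H4 windows held the HINFP core, against 23.4% of 32851 promoter windows of the same length, and in 11 of the 12 genes a copy lay between positions -46 and -4. It was also in 3 of 5 H2a, 6 of 17 H2b, 1 of 10 H3 and 0 of 6 H1 windows. Those copies began at -234 to -231 in H2a and at -101 in H3. In H2b they began at -93 to 46, with a median of 40, which lies after the start. A CCAAT box stood in all 6 H1, all 5 H2a, all 17 H2b and all 10 H3 windows. It stood in only 3 of 12 H4 windows, against 37.4% of all windows. The only match in H3c15 and in H3c14 began after the start, at 15 and 30. The octamer core was found in 4 of 5 H2a and 7 of 17 H2b windows and in no H1, H3 or H4 window, against 4.02% of all. The H1 box was found in 5 of 6 H1 windows, H1f1 being the exception, against 7.18% of all. It also stood in 2 of 5 H2a and 2 of 17 H2b windows and in no H3 or H4 window. A TATA box was found in 28 of the 50 histone windows against 13.6%. These counts take matches anywhere in a window. A TATA box within 50 bases before the start was found in 15 histone genes. A match is a run of letters, not a measured binding site.

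**Figure D1:**
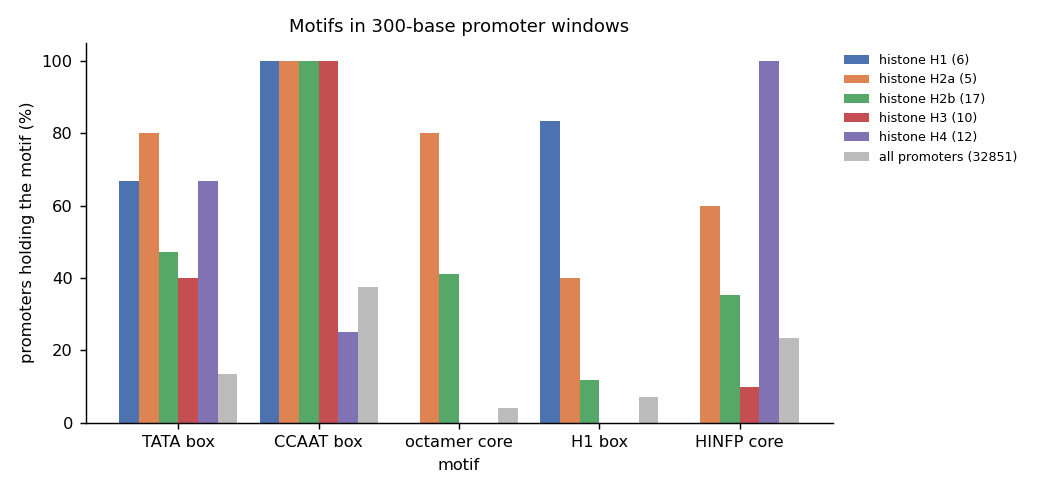
Share of promoter windows (percent, vertical axis) that hold each of 5 motifs, for the 5 histone classes (number of windows in brackets) and for all promoter windows in grey. The HINFP core is in all 12 H4 windows and the CCAAT box in all H1, H2a, H2b and H3 windows.

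The comparison is of histone transcript levels in T cells from rapamycin-treated and PBS-treated recipients. Most histone probe sets measured slightly lower with rapamycin, the median difference of every class was negative, and none passed the test. Of 55 probe sets 51 had a negative difference (rapamycin minus PBS), where 54.7% of all probe sets did, and 4 had a positive one, where 45.3% did. The median difference was -0.068 log2, a level 4.63% lower, against a median of -0.012 over all probe sets. The linker gene H1f1 had the largest negative difference (-0.22, SE 0.10), followed by H4c14 (-0.19, SE 0.07), and the H2b gene H2bc4 the largest positive one (0.19, SE 0.16). In RNA from sorted cells, fewer cells in S phase and less histone mRNA per cell cannot be told apart.

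By limma's moderated test with Benjamini-Hochberg adjustment over all 35556 probe sets, 0 of 55 histone probe sets passed an adjusted p of 0.05, as did 0% of all probe sets. The adjusted p of every histone probe set rounded to 1.0, and the smallest on the arrays was 0.376, for Glp1r. At an unadjusted p under 0.05, 2 histone probe sets were lower and 0 higher, where 2.55% of all probe sets were lower (908) and 1.34% higher (477). The 3 rapamycin values all lay below the 3 PBS values in 11 of 55 histone probe sets, where 5.44% of all probe sets did so, and above in 0 of 55, where 3.09% did. Of those 11, 5 are the H4 probe sets shared by 11 genes, of which 2 hold identical values, so the 11 are not independent measurements.

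The precision of the differences, on the scale of the deposited values, was as follows. The SE of a histone difference was 0.0648 to 0.262, with a median of 0.0722, and for 54 of 55 probe sets the 95% interval lay wholly within a 1.5-fold change in either direction. The exception was H3c15, with an interval of -0.65 to 0.61. The interval included 0 for 53 of 55 probe sets, the others being H4c14 and H2ac8.

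Mice of a group differed in the level of the histone probe sets. The median deviation of the 55 probe sets from their mean over 6 arrays was 0.062, -0.014 and 0.056 log2 in PBS replicates 1, 2 and 3, and -0.014, -0.070 and -0.026 in rapamycin replicates 1, 2 and 3. PBS replicate 2 and rapamycin replicate 1 thus had the same value, and the groups overlapped. Of the 55 probe sets, 4, 35 and 5 lay below their own 6-array mean in the PBS mice and 32, 52 and 43 in the rapamycin mice. The median difference lay between -0.092 (without PBS replicate 2) and -0.056 (without PBS replicate 3) when single mice were left out, and the number of negative probe sets lay between 46 and 53.

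**Figure D2:**
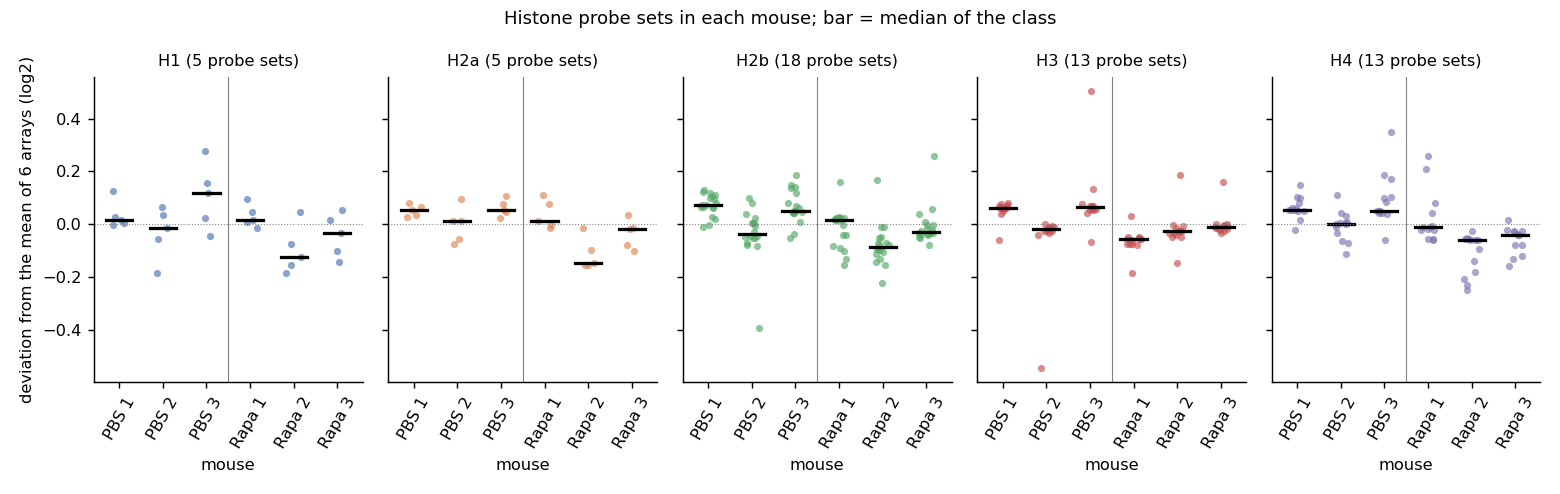
Deviation of each histone probe set (point) from its mean over the 6 arrays (log2, vertical axis) in each mouse (horizontal axis, PBS left of the line and rapamycin right of it), 1 panel a class, with the class median as a bar. In PBS replicates 1 and 3 most points lie above 0 in every class, and PBS replicate 2 lies nearer 0 or below it.

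Linker histones of the H1 class bind DNA where it enters and leaves the nucleosome. H1f1 (Hist1h1a) measured 11.30, 11.37 and 11.58 log2 in PBS replicates 1, 2 and 3 and 11.29, 11.12 and 11.16 in the rapamycin mice. The groups did not overlap, but rapamycin replicate 1 lay just below the lowest PBS mouse; the difference was -0.22 (interval -0.47 to 0.02, unadjusted p = 0.0653 in limma), and -0.14 without PBS replicate 3. H1f2 (Hist1h1c), another somatic linker histone, measured 7.74, 7.75 and 7.87 with PBS and 7.72, 7.59 and 7.61 with rapamycin, again without overlap (difference -0.15, SE 0.08). H1f5 (Hist1h1b), at 11.07 ± 0.07 with PBS and 10.99 ± 0.10 with rapamycin (SD, n = 3 each), overlapped between the groups. H1f3 and H1f6, the latter the linker histone of the testis (Hist1h1t), lay low on the arrays at means of 5.21 and 4.95, and differed by 0.02 and 0.07. In the class 3 of 5 differences were negative, with a median of -0.081; without rapamycin replicate 2 the median was -0.023, and without PBS replicate 2 all 5 were negative.

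H2A pairs with H2B in the outer part of the nucleosome core. All 5 H2a probe sets had negative differences, with a median of -0.064; without rapamycin replicate 2 the median was -0.023 and 4 of 5 were negative. H2ac8 (Hist1h2ae), the lowest of them, measured 4.40, 4.43 and 4.44 with PBS and 4.32, 4.18 and 4.23 with rapamycin, without overlap (difference -0.18, interval -0.35 to -0.01, unadjusted p = 0.0453 in limma). This level is under the median probe set, and whether the probe set detects its transcript was not tested. The brightest, H2ac4 (Hist1h2ab) and H2ac15 (Hist1h2ak), measured 12.01 ± 0.02 and 11.25 ± 0.07 with PBS and 11.94 ± 0.05 and 11.23 ± 0.01 with rapamycin, and overlapped. H2aw, formerly Hist3h2a, had a difference of -0.08 (SE 0.09), and H2ac1, the H2A of the testis (Hist1h2aa), -0.03 (SE 0.09). Both large H2a probe sets that also list H2ax, which were not members, differed by -0.02 each at levels of 13.95 and 13.49.

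H2b had 16 of 18 differences negative and a median of -0.073, which was -0.044 without rapamycin replicate 2. The 7 probe sets shared by 14 or 15 H2b genes ran together, at mean levels of 12.32 to 12.86 and differences of -0.08 to -0.04, and their groups overlapped in all 7. One pair of these probe sets gave identical values on all 6 arrays. The brightest of them measured 12.92, 12.85 and 12.90 with PBS and 12.88, 12.78 and 12.82 with rapamycin, where PBS replicate 2 lay between the rapamycin values. Among the 11 probe sets with 1 gene, differences spread from -0.17 to 0.19. H2bc22 (Hist1h2bp) measured 4.99, 5.05 and 5.11 with PBS and 4.88, 4.90 and 4.89 with rapamycin, the only H2b probe set without overlap (difference -0.16, SE 0.07, unadjusted p = 0.0617 in limma), at a level under the median probe set. H2bc14 (Hist1h2bm) measured 11.96 ± 0.10 and 11.83 ± 0.06, and H2bu1-ps, annotated by RefSeq as a transcribed pseudogene, 8.03 ± 0.12 and 7.86 ± 0.12; both overlapped.

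H2bc4 (Hist1h2bc) was one of 2 H2b probe sets with a positive difference. It measured 7.36, 6.87 and 7.27 with PBS and 7.13, 7.43 and 7.52 with rapamycin, a difference of 0.19 (interval -0.20 to 0.58, unadjusted p = 0.283 in limma) that was 0.04 without PBS replicate 2 and 0.31 without rapamycin replicate 1. PBS replicate 2 was lowest and rapamycin replicate 3 highest, and rapamycin replicate 1 lay below both other PBS mice. H2bc4 is among the H2b genes known also to give polyadenylated transcripts in cells that do not divide; H2bc21 (Hist2h2be), another such gene, differed by -0.03 (SE 0.07). The testis gene H2bc1 (Hist1h2ba) had a mean of 6.80 in both groups. The probe set of H2bc6 and the linker gene H1f4 measured 7.10 ± 0.04 and 7.07 ± 0.06.

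H3 and H4 form the tetramer at the centre of the nucleosome. The 10 probe sets shared by 12 H3 genes had mean levels of 13.62 to 13.80, where the highest value on any array was 14.3, and their differences were all between -0.07 and -0.06. One of them, with the smallest p of the class, measured 13.73, 13.65 and 13.74 with PBS and 13.62, 13.63 and 13.65 with rapamycin (difference -0.07, SE 0.07, unadjusted p = 0.316 in limma). It was the only H3 probe set whose groups did not overlap; in the other 9 of this kind PBS replicate 2 lay among the rapamycin mice or level with them. The 3 H3 probe sets with 1 gene lay at 3.08 (H3c7), 4.0 (H3c15) and 5.44 (H3c4) and differed by -0.04, -0.02 and -0.01. H3c15 varied most of all histone probe sets, with 4.07, 3.45 and 4.50 in the PBS mice and 3.81, 4.18 and 3.96 in the rapamycin mice. All 13 H3 differences were negative (median -0.060), and the median of the 3 single-gene probe sets was -0.023.

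In class H4 the groups did not overlap in 6 of 13 probe sets, all lower with rapamycin, where 5.44% of all probe sets did so. Of these 6, 5 are probe sets shared by the same 11 genes, 2 of them with identical values, so they repeat a measurement. H4c14 (Hist2h4), an H4 gene of the second cluster, measured 13.29, 13.24 and 13.38 with PBS and 13.15, 13.07 and 13.13 with rapamycin. The groups did not overlap, and the difference was -0.19 (interval -0.37 to -0.01), a level lower by a factor of 1.14. Its unadjusted p of 0.0401 in limma was the smallest of the 55. The 5 probe sets shared by 11 H4 genes gave 0.02 to 0.03 SD between mice of a group and a difference of -0.07 each; one of the pair with identical values measured 13.61, 13.55 and 13.60 with PBS and 13.54, 13.49 and 13.51 with rapamycin. The H4 genes with probe sets of their own ranged from -0.19 to -0.06. H4f16 (Hist4h4), a lone H4 gene outside the clusters, measured 11.72, 11.66 and 11.72 with PBS and 11.66, 11.41 and 11.54 with rapamycin, where rapamycin replicate 1 equalled the lowest PBS mouse at 2 decimals. The probe set of H4c17 and H4c11, at 5.58 the lowest of the class, differed by -0.14 (SE 0.13), and by 0.00 without PBS replicate 3. All 13 H4 differences were negative, with a median of -0.074.

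**Figure D3:**
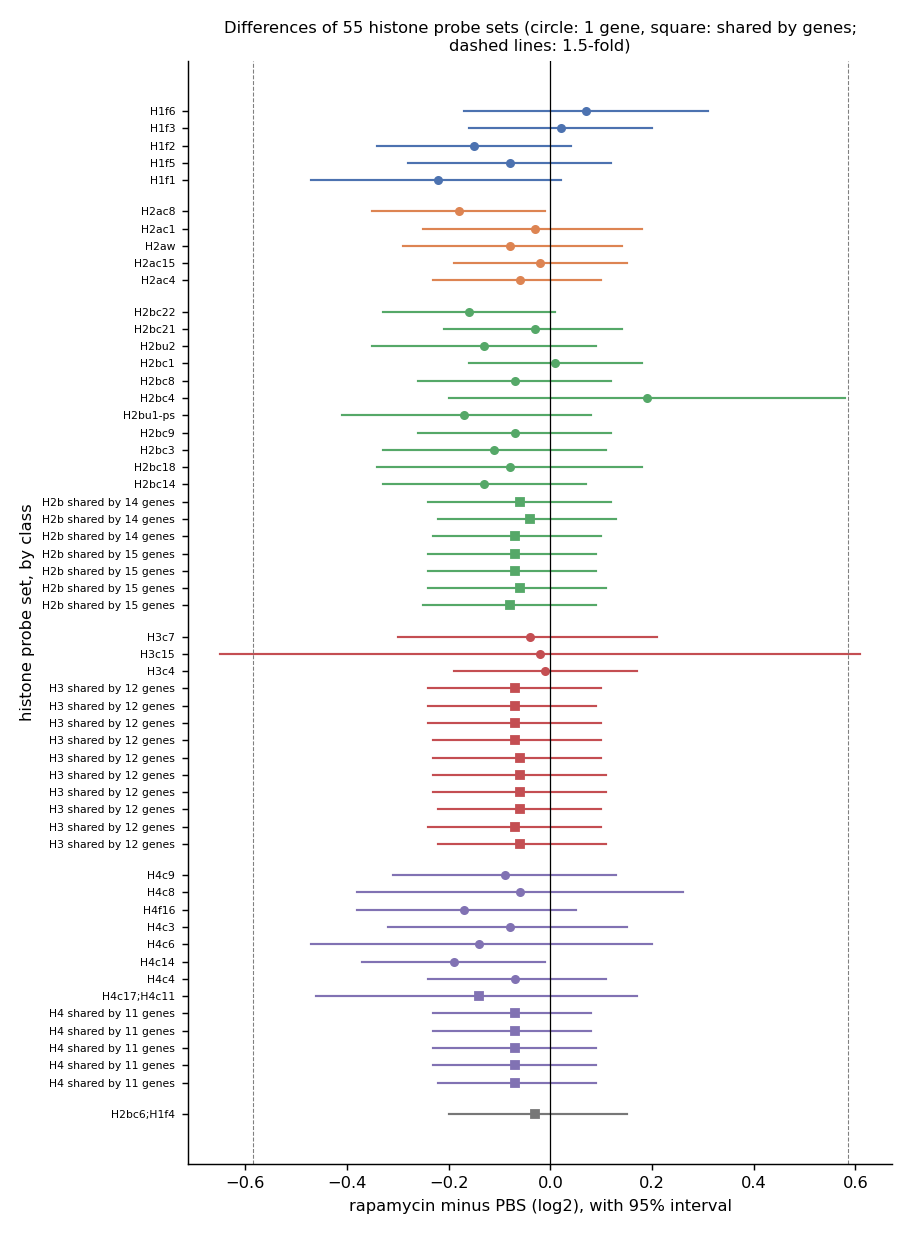
Difference between rapamycin and PBS (log2, horizontal axis) with its 95% interval for each of the 55 histone probe sets, by class; circles are probe sets with 1 gene, squares those shared by genes, and dashed lines mark 1.5-fold. Most differences lie between -0.2 and 0, and H2bc4 is the largest to the right of 0.

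Probe sets that share genes are repeats of a measurement more than separate genes. When the probe sets with the same genes were averaged, 37 remained, of which 33 were negative with a median of -0.072. Among the 31 probe sets with 1 gene 27 were negative, with a median of -0.077, and among the 24 shared ones all were negative, with a median of -0.066. Histone probe sets also varied little between mice of a group: in the bin of 13 to 14 log2 the median SD was 0.0369 for 17 histone probe sets and 0.0507 for all 213. The moderated test draws such small SDs towards that of the typical probe set, whose median SD was 0.135.

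Negative differences were found in each range of signal. In the bin of 13 to 14 log2 all 17 histone differences were negative with a median of -0.066, where 53.1% of all 213 probe sets were negative with a median of -0.002. From 12 to 13 log2 all 8 were negative (median -0.070), where 37.4% of 457 were (median 0.016). From 9 to 12 log2 all 11 were negative (median -0.081), where 54.7% of all probe sets were. From 6 to 9 log2 9 of 11 were (median -0.06), where 54.9% of all were. From 2 to 6 log2 6 of 8 were (median -0.034), where 55.1% of all were. These bins describe the arrays and test nothing, since the members of a bin share genes and mice.

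**Figure D4:**
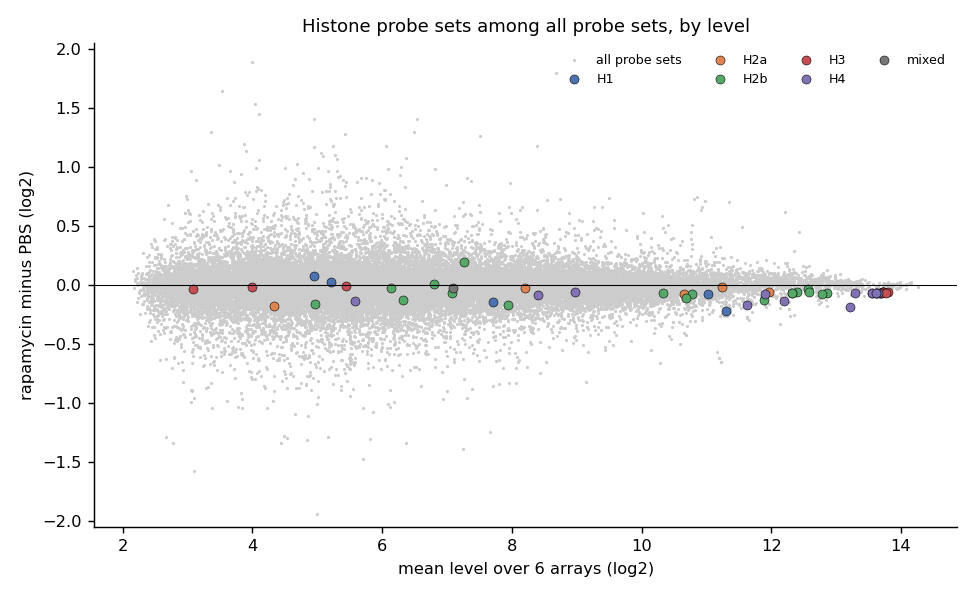
Difference between rapamycin and PBS (log2, vertical axis) against the mean level over 6 arrays (log2, horizontal axis) for all 35556 probe sets in grey and the 55 histone probe sets by class. Above 12 log2 the 25 histone probe sets all lie just below 0.

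Genes that make and process histone mRNA were compared next. Of 31 such genes 30 had a probe set of their own, of which 21 were lower (median difference -0.044) and 0 passed. Slbp, which encodes the stem-loop binding protein, measured 9.89, 10.03 and 10.01 with PBS and 9.99, 9.77 and 9.84 with rapamycin, and overlapped (difference -0.11, SE 0.09). Npat, the coactivator of histone transcription, measured 8.63 ± 0.10 and 8.76 ± 0.25, a difference of 0.13 in the other direction. Eri1, an exonuclease that trims the histone stem-loop, measured 8.92, 8.97 and 8.92 with PBS and 8.79, 8.79 and 8.85 with rapamycin, without overlap (difference -0.13, SE 0.07, unadjusted p = 0.0992 in limma). Ccne1, encoding the cyclin E that acts on NPAT, differed by -0.11 (SE 0.07), also without overlap.

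Histone chaperones and import factors were divided in direction. Of 24 genes 23 were measured, 12 negative, with a median of -0.004 and 0 passing; without PBS replicate 2, 8 were negative. Asf1b, a chaperone of H3 and H4 in dividing cells, measured 10.44, 10.26 and 10.41 with PBS and 10.20, 10.24 and 10.25 with rapamycin, where PBS replicate 2 lay just above the highest rapamycin mouse (difference -0.14, SE 0.08). Chaf1b, a subunit of the assembly factor CAF-1, had -0.21 (SE 0.17) and Dnajc9, another H3 and H4 chaperone, 0.12 (SE 0.09), both with overlap.

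Genes listed as replication-independent histone genes had 6 of 11 measured differences negative and a median of -0.005 (13 genes listed). Cenpa, the H3 variant of centromeres, differed by -0.10 (SE 0.08), and H2az1, the H2A.Z gene, measured 12.23 ± 0.05 and 12.16 ± 0.06. Macroh2a1 and Macroh2a2, genes of the large macroH2A variants, had positive differences of 0.06 and 0.08. Macroh2a2 (4.89), H3f3a (4.63) and H1f8 (4.9) lay under the median probe set, and whether they detect their transcripts was not tested. Neither list was tested against the replication-dependent genes, since the members were not chosen independently of these data.

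S phase and proliferation genes had 16 of 28 measured differences negative (30 listed) and a median of -0.011, with 0 passing. Mki67, the proliferation marker, measured 11.80, 11.83 and 11.67 with PBS and 11.80, 11.61 and 11.68 with rapamycin. Pcna, the sliding clamp of DNA polymerase, measured 11.91 ± 0.06 and 11.95 ± 0.04, Mcm5, of the replicative helicase, had -0.07 (SE 0.08), and Rrm2, of the enzyme that makes deoxynucleotides, -0.10 (SE 0.09). By mouse, the list's median deviation was -0.057, 0.046 and 0.026 with PBS and 0.012, 0.002 and -0.028 with rapamycin. PBS replicate 1, highest for the histone probe sets at 0.062, was the lowest mouse for this list, and PBS replicate 2, lowest of the PBS mice for histones, was its highest. Over all probe sets the median deviation was 0.002 in PBS replicate 1 and 0.037 in PBS replicate 2, the highest of all mice. Whether the histone probe sets and this list vary together by mouse was not tested.

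**Figure D5:**
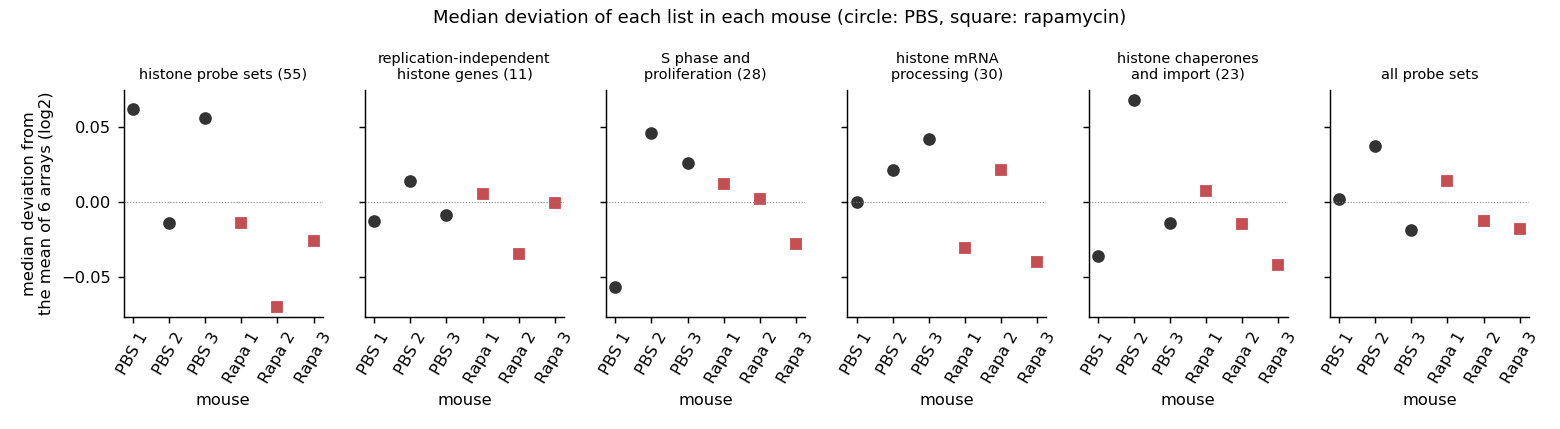
Median deviation from the mean of 6 arrays (log2, vertical axis) of 6 gene groups in each mouse (horizontal axis; circles PBS, squares rapamycin). PBS replicates 1 and 3 stand above the other mice for the histone probe sets, and PBS replicate 1 is the lowest for the S phase list.

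Markers of other cells differed in direction. Of the markers of neutrophils and their precursors, 16 of 18 had positive differences (0 passing), with a median difference of 0.444 that was 0.066 without PBS replicate 3 and 0.160 without rapamycin replicate 1. The log2 of their summed linear level was 13.41 to 14.49 in PBS mice and 14.11 to 14.78 in rapamycin mice. Erythroid markers had positive differences in 9 of 11, with summed levels of 10.05 to 10.62 and 10.19 to 10.51. B cell markers had negative ones in 8 of 13, with 9.54 to 9.69 and 9.35 to 9.53. Among them Fcrl1 (-0.89, SE 0.13) and Cd79b (-0.54, SE 0.12) did not overlap between the groups, and neither passed. Monocyte and macrophage markers had negative ones in 8 of 13, with 13.32 to 13.55 and 13.23 to 13.84. Among these Spic was lower (-1.34, SE 0.22) and Lyz2 higher (0.29, SE 0.12) without overlap, and neither passed. T cell identity markers had negative differences in 10 of 14, with 0 passing. Their median difference was -0.039, and lay between -0.07 and 0.011 with single mice left out. Their summed levels were 15.29 to 15.47 in PBS mice and 15.28 to 15.47 in rapamycin mice. RMA values have no 0, so no marker can be called absent. By the same measure the 55 histone probe sets summed to 18.23, 18.15 and 18.23 with PBS and 18.14, 18.11 and 18.14 with rapamycin. PBS replicates 1 and 3, alike in their histone sum, had the highest and the lowest neutrophil sum of the PBS mice, and the part of these cells in the histone differences was not tested.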

How the data were processed

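RNA of CD3-sorted splenic T cells from 6 mice was hybridised to Affymetrix whole-transcript arrays, 1 a mouse, after sense-strand target labelling of total RNA. The deposited values are log2 expression that the authors made with RMA in Affymetrix Expression Console, per the submitters' processing notes, which means background correction, quantile normalization and a summary per probe set. Quantile normalization removes shifts shared by most probe sets, and array values can understate differences of weak and very bright signals, which was not tested here. The genome build behind the array's probe sets is not given in those notes. Array medians lay between 6.03 and 6.17.

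Groups and replicate numbers come from the sample titles. All 35556 probe sets, of which the platform's table gives 21789 a single gene symbol, 1621 several and 12146 none, went into a single limma 3.58.1 model (R 4.3.3; lmFit, then eBayes) with the group and no other covariate, giving 6.47 moderated degrees of freedom. Two-sided p-values were adjusted by Benjamini-Hochberg over all of them, and those under 0.05 count as passing. The test was checked on simulated data. Other lists used 1 probe set a gene, the one with the highest mean. Sets of genes were counted, not tested. Named histone probe sets are, per class, the 3 with the smallest p, the 2 brightest, the dimmest, the largest difference in each direction and the testis genes, and up to 4 genes with the smallest p of each other list, plus Slbp, Npat, Mki67, Pcna, Mcm5, Cd3e and Glp1r. H1f3, H2bc21, H3c4, H3c15, H3f3a and H1f8 do not come from this rule and were singled out once their values were known. The members, lists and tests were chosen with earlier results of these data known. Alternatives were another set of probe sets, a filter on low values, array centring, a trended robust fit, array weights, a replicate block, leaving out each mouse, and, chosen after seeing the data, cyclic loess and averaging probe sets with the same genes. The number of arrays, 3 a group, limits the precision. Plots used matplotlib 3.10.9 under Python 3.11.15.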

Additional observations from a re-analysis of the deposited data

How the results depend on the processing

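Of the 55 histone probe sets 0 were called in every setting run, and their median difference was negative in all of them: -0.052 with arrays centred on their medians, -0.082 with array weights, -0.068 with cyclic loess and -0.092 to -0.056 with single mice left out. Over all probe sets 0 were called, except 1 (Glp1r) when the model was refitted to only the 23410 probe sets with a listed gene. That refit changes the typical SD that the moderated test draws on as well as the number of tests. In class H1, 3 of 3 differences were negative with low values filtered, which leaves fewer probe sets, and 3 to 5 of 5 with single mice left out; in class H3 the median was -0.023 over the 3 probe sets with 1 gene. With single mice left out, the difference changed sign for H1f6 (0.00 to 0.15), H2ac1 (-0.08 to 0.04), H2ac15 (-0.06 to 0.01), H2bc1 (-0.02 to 0.05), H3c7 (-0.14 to 0.02), the probe set of H2bc6 and H1f4 (-0.05 to 0.00), Macroh2a2 (-0.03 to 0.20) and Blnk (-0.03 to 0.14), none of them called; the cause was not tested. Deviations from the group mean correlated at 0.0613, -0.136 and 0.201 between same-numbered mice and at -0.349 to 0.302 between the others. With 3 mice a group these values cannot decide whether the replicate numbers pair the mice. With the replicate number as a block 0 probe sets were called and the histone median stayed at -0.068. Whether the scale of the deposited values compresses the differences of bright or dim probe sets was not tested.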
